A study of Mus musculus with 7 samples.

Results

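The enteroendocrine hormone genes of the mouse duodenum were taken as the rows of the deposited table whose symbol was Gip, Cck, Sct, Sst, Ghrl, Gcg, Pyy, Nts, Tac1 or Tph1. All 10 were present among 14795 genes, and 9 of them were above 1 CPM (read counts scaled to a common, adjusted library size) in at least 3 libraries, as were 13399 genes in all. Pyy was below 1 CPM in every library and was not tested across genes. RNA of the whole duodenum was read for 3 mice of genotype Ppara lox/lox and for 4 of genotype Ppara I-KO, all of the C57BL/6 strain. The study's methods describe these mice as male and fed a high-fat diet. In Ppara lox/lox mice both Ppara alleles are floxed and no Cre is present. In Ppara I-KO mice the same floxed alleles are removed by a Cre driven by the Villin promoter, which is active in the whole intestinal epithelium, enteroendocrine cells included. Littermates without Cre were the controls, so the transgene and the loss of PPARα cannot be told apart. By the labels, food was taken away at 12:00 and given back at 18:00, and the mice were killed at 0:00, after 6 h without food and 6 h of refeeding. The labels give no age and no diet.

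Enteroendocrine cells are rare secretory cells scattered along the crypts and villi, which release peptide hormones or serotonin when nutrients reach the gut lumen. They arise from crypt stem cells under Neurog3, and single cells often make several hormones. The proximal small intestine is known for GIP, cholecystokinin and secretin, whereas the proglucagon products, peptide YY and neurotensin are more typical of the distal gut. Chromogranins such as Chga and Chgb are proteins of the hormone granule and mark these cells as a class. PPARα is a nuclear receptor for fatty acids and drives genes of fatty acid oxidation. The comparison asks whether gut hormone genes differ in level when PPARα is removed from the intestinal epithelium.

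The regions just upstream of 4 of the genes are shown to give the sequence context of the genes that the results turn on: Gip, the highest, Sst, the second highest per length, and Gcg and Tac1, whose levels are set beside those of Chga. Each window runs from 250 bases before to 50 after the annotated start site (RefSeq, GRCm38.p6), 5′ to 3′ on the strand of the gene. Capitals mark TGACGTCA, the cyclic AMP response element, and TATAAA, the TATA box, as found on either strand (the reverse of the TATA box reads TTTATA). The windows are chr11:96024295-96024594 on the plus strand for Gip, chr16:23890795-23891094 on the minus strand for Sst, chr2:62483604-62483903 on the minus strand for Gcg and chr6:7554811-7555110 on the plus strand for Tac1.
Gip: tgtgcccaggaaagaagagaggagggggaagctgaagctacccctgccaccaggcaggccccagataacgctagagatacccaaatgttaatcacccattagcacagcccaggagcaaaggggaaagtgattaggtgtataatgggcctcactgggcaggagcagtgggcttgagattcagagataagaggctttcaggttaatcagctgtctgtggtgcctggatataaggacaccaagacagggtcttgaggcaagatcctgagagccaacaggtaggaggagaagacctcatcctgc
Sst: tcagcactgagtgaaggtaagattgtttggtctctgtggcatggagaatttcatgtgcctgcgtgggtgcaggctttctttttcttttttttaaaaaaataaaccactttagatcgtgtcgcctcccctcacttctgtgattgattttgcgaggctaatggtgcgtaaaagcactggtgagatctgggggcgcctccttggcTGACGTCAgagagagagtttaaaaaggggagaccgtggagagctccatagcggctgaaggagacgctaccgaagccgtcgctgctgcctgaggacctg
Gcg: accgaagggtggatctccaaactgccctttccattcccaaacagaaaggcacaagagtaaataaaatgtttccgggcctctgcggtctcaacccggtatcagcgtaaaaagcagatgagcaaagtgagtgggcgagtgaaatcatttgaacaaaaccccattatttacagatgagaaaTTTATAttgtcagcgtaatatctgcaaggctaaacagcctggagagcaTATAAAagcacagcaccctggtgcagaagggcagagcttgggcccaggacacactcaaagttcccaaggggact
Tac1: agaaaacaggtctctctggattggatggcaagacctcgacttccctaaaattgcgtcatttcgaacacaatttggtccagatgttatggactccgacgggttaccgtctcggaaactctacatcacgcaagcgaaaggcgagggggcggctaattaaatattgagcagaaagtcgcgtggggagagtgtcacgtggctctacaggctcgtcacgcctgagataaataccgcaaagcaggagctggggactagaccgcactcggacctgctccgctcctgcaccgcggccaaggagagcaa
The cyclic AMP response element was in the Sst window, 48 bases before the start site, and in none of the other 14 windows of the 10 genes. Of all 32851 windows of this length, 1.79% held it. Its shorter core TGACG, which every full element also contains, was in windows of Tac1, Tph1, Cck, Nts and Sst, and in 20.8% of all windows. TATAAA was in the Gcg window, 72 and 24 bases before the start, and in the Sct window, 28 bases before it, compared with 13.6% of all windows. AGGTCANAGGTCA, a direct repeat of the half-element that PPARα binds with its partner RXR, was in 0 of the 15 windows and in 0.0396% of all windows. These matches are descriptions of the letters in a short window and were not tested for function.

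Between 20741422 and 25885331 reads per library fell on the listed genes, from the step between neighbouring low values, so that 1 read was worth between 0.0393 and 0.0530 CPM. The hormone genes rested on 4 to 11 reads per library for Pyy, 47 to 112 for Tac1 and 1679 to 2462 for Gip. Ppara itself did not separate the genotypes. It was at 53.4, 49.3 and 63.2 CPM in Ppara lox/lox and at 33.0, 40.6, 47.5 and 69.9 CPM in Ppara I-KO (two-sided exact permutation test, p = 0.40), and the library labelled I-KO replicate 4 was above all 3 controls. A total over the gene does not show whether the floxed part is missing, so it is no check of the labels. Genes of the epithelium list summed to between 13222 and 17054 CPM. Genes of pancreatic acinar cells stood apart in I-KO replicate 1, with a sum of 530 CPM against 77.5 to 174 CPM elsewhere. The acinar genes Cela1 (50.8 CPM) and Pnlip (49.6 CPM) were among those high in this library. A control, lox/lox replicate 2, also had Pnlip at 9.74 CPM and Ctrb1 at 10.98 CPM. In the remaining libraries these were at most 0.43 and 0.71 CPM. Other genes of the list did not follow this course, such as Pnliprp2 at 47.15 to 83.38 CPM over all libraries. In a tissue homogenate, fewer cells of a type and less RNA per cell cannot be told apart.

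Gip dominated the transcripts of the 10 hormone genes taken here. Per kb of exon it stood at 136 ± 9.35 CPM (SD, n = 7 libraries of both genotypes), which was 50.3% of the summed level of the 10 genes and between 47.1% and 53.0% in single libraries. Sst followed at 46.1 ± 4.64, Sct at 38.5 ± 3.59 and Cck at 21.7 ± 2.60 CPM per kb. Ghrl was at 13.2 ± 2.81, Gcg at 6.60 ± 1.79 and Nts at 4.04 ± 0.869 CPM per kb. Tph1, Tac1 and Pyy were lowest, at 2.01 ± 0.358, 1.10 ± 0.196 and 0.586 ± 0.162 CPM per kb. Genes of the proximal gut thus stood above those more typical of the distal gut, with Sst between Gip and Sct.

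**Figure D1:**
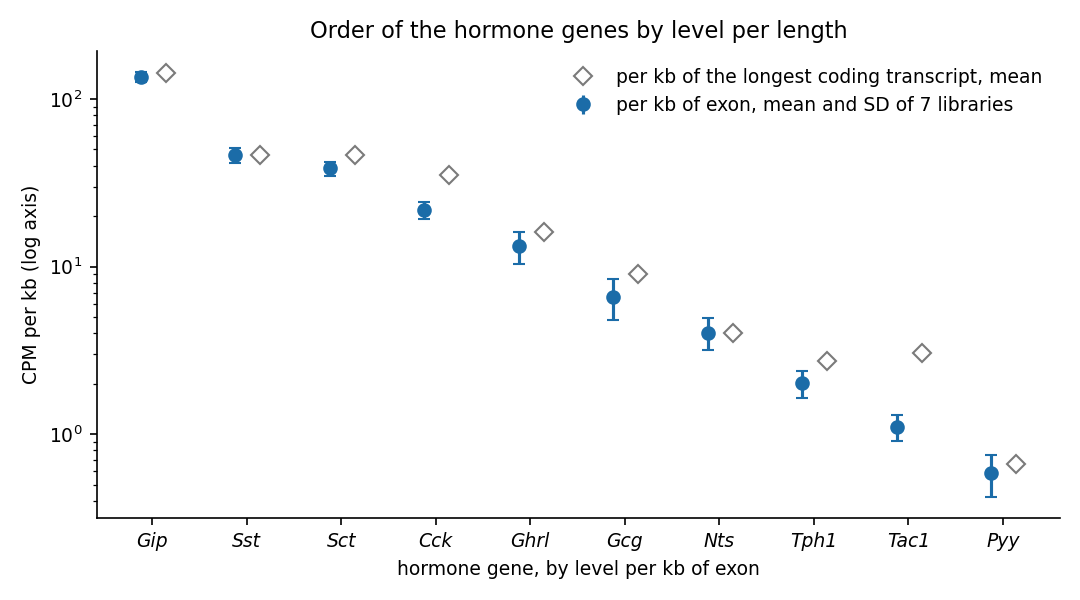
Level of the 10 hormone genes in CPM per kb on a log axis, with filled points and bars for the mean and SD of 7 libraries per kb of all annotated exons and open diamonds for the mean per kb of the longest coding transcript. Gip stood at 136 CPM per kb, 2.95-fold above Sst, and the places of Sst and Sct and those of Tph1 and Tac1 were exchanged with the other length.

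Neighbours in this order were compared within libraries by a two-sided exact sign-flip permutation test of the 7 log2 ratios, whose smallest possible p is 0.0156. All 9 steps passed after Benjamini-Hochberg adjustment over 9. The order was taken from these same 7 libraries, so the tests are no independent support for it. They describe how steadily each step was held across the libraries. Gip exceeded Sst by 2.95-fold, between 2.26-fold and 3.39-fold in single libraries, and Sst exceeded Sct by 1.20-fold, between 1.03-fold and 1.56-fold (exact permutation p = 0.0156 and adjusted p = 0.0201 for each). The step from Gcg to Nts was held by 6 of 7 libraries (1.60-fold, exact permutation p = 0.0469, adjusted p = 0.0469), since in I-KO replicate 3 Nts stood above Gcg. The step from Tac1 to Pyy was also held by 6 of 7 libraries (1.94-fold, exact permutation p = 0.0313, adjusted p = 0.0352). The order depended in part on the length used. Per kb of the longest coding transcript, Sct and Sst differed by 1.01-fold, within their spread (exact permutation p = 0.828, adjusted p = 0.828), and Tac1 and Tph1 by 1.12-fold (exact permutation p = 0.109, adjusted p = 0.123). Tac1 has 3399 bases of annotated exon and 1230 in its longest coding transcript, which moved it above Tph1.

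No hormone gene differed between the genotypes beyond the spread of the libraries. By limma on log2(CPM + 1), 0 of 9 tested hormone genes passed an adjusted p of 0.05, compared with 0.0299% of all 13399 genes, which is 4 genes. At an unadjusted p under 0.05 the count was again 0 of 9, compared with 4.74% of all genes, and it was 1 of 9, Gcg, without I-KO replicate 4. The levels of the groups overlapped for all 10 genes, while the groups did not overlap for 6.19% of all genes tested. The fitted difference was lower in Ppara I-KO for 6 of 9 and higher for 3, compared with 49.4% lower over all genes. The median log2 difference was -0.05 for the 9 hormone genes and 0.0017 for all genes tested. The 95% intervals reached 0.33 on either side of the estimate in the median gene and between 0.21 and 0.49 over the 9 genes. These intervals are not adjusted for the number of genes tested. Smaller differences were not detectable with 3 and 4 libraries, and larger ones could also miss the adjusted threshold. Without I-KO replicate 4, Gcg differed by -0.57 and had a limma adjusted p of 0.676.

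**Figure D2:**
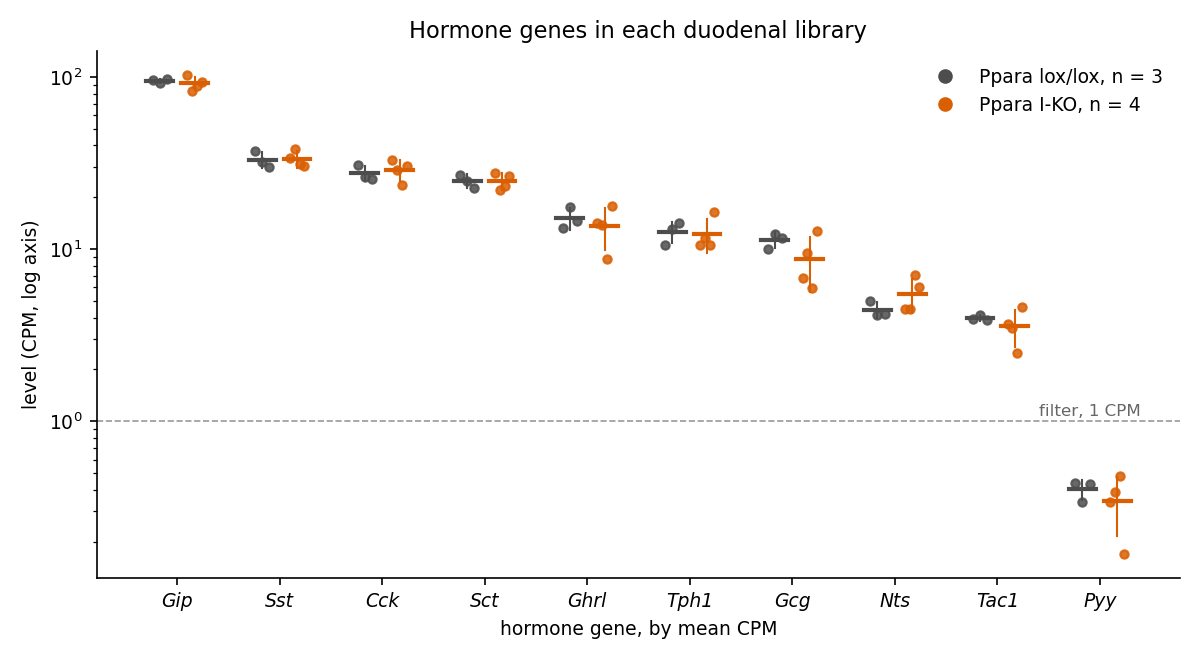
CPM of each hormone gene on a log axis in 3 Ppara lox/lox (grey) and 4 Ppara I-KO libraries (orange), with a short line for the group mean, a vertical bar for the SD and a dashed line at 1 CPM. The groups overlap for all 10 genes, from Gip at 82.7 to 103 CPM down to Pyy at 0.17 to 0.48 CPM.

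Gip encodes the incretin of K cells, which raises insulin release after a meal. It was at 96.3, 91.6 and 96.7 CPM in Ppara lox/lox and at 103, 82.7, 88.9 and 93.0 CPM in Ppara I-KO. The highest and the lowest library were both I-KO, and the controls lay between them. The means of 94.9 ± 2.85 (SD, n = 3) and 91.9 ± 8.49 CPM (SD, n = 4) gave a log2 difference of -0.05 (SE 0.09, limma adjusted p = 0.976), with a 95% interval from 0.836-fold to 1.12-fold. Gip had the narrowest interval of the set. The gene lies on chr11:96024545-96030831 (plus strand, GRCm38) and its longest coding transcript has 6 exons.

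Cck and Sct encode cholecystokinin, which releases bile and pancreatic enzymes and curbs eating, and secretin, which drives bicarbonate secretion. Cck (chr9:121489824-121495694) was at 30.9, 26.3 and 25.6 CPM in Ppara lox/lox and at 33.0, 28.6, 23.4 and 30.3 CPM in Ppara I-KO. I-KO replicate 1 was again the highest, and I-KO replicate 3 the lowest. The log2 difference was 0.06 (SE 0.13, limma adjusted p = 0.978), with a 95% interval from 0.853-fold to 1.27-fold. Sct (chr7:141278330-141279133) was at 27.1, 25.0 and 22.6 CPM in Ppara lox/lox and at 27.7, 22.0, 23.2 and 26.4 CPM in Ppara I-KO. Its group means, 24.9 ± 2.25 (SD, n = 3) and 24.8 ± 2.71 CPM (SD, n = 4), had the ratio nearest to 1 of the set, with a 95% interval from 0.842-fold to 1.18-fold. The ratio of Gip to Cck was between 2.89 and 3.80 in single libraries.

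Sst encodes somatostatin, the inhibitory peptide of D cells, which restrains the release of most other gut hormones. It was at 37.2, 32.1 and 29.9 CPM in Ppara lox/lox and at 33.7, 38.3, 31.0 and 30.3 CPM in Ppara I-KO (chr16:23889573-23890958). I-KO replicate 2, the lowest library for Gip and Sct, was the highest for Sst. Between genotypes the log2 difference was 0.0097 (SE 0.11, limma adjusted p = 0.997), with a 95% interval from 0.845-fold to 1.20-fold. Sst is also made by enteric neurons. The neuronal list summed to 85.9 CPM in I-KO replicate 1 and to between 64.3 and 74.2 CPM in the others, and its part in Sst was not tested.

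Ghrl encodes ghrelin, the hunger hormone, made mainly in the stomach and to a lesser extent in the duodenum. It was at 13.2, 17.6 and 14.6 CPM in Ppara lox/lox and at 14.1, 13.9, 8.79 and 17.8 CPM in Ppara I-KO (chr6:113716119-113719880). I-KO replicate 3 was well under all other libraries and I-KO replicate 4 above them. The log2 difference was -0.17 (SE 0.20, limma adjusted p = 0.962), and without I-KO replicate 3 it was 0.01. Exons of Gm26982 and Gm44033 overlap Ghrl on the other strand, and the strand setting of the counting is not given in the sources used here, so their reads may be included. Markers of the stomach were low in all libraries: Gkn3 was at 0.74 to 3.27 CPM and Pgc at 0.63 to 1.74 CPM, with I-KO replicate 4 highest for both. Their part in Ghrl was not tested.

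Gcg encodes proglucagon, the precursor of GLP-1 and GLP-2. It was at 10.02, 12.3 and 11.7 CPM in Ppara lox/lox and at 6.80, 9.47, 5.93 and 12.8 CPM in Ppara I-KO (chr2:62474530-62483650). In 3 of the 4 I-KO libraries Gcg was below all controls, and in I-KO replicate 4 it was above them. Gcg averaged 11.3 ± 1.18 CPM (SD, n = 3) in the controls and 8.74 ± 3.08 CPM (SD, n = 4) in Ppara I-KO. Its log2 difference, the lowest of the 9, was -0.39 (SE 0.22, limma adjusted p = 0.954), with a 95% interval from 0.545-fold to 1.07-fold. The exact permutation test gave p = 0.257, where 35 ways to divide the libraries allow no p under 0.0286. Without I-KO replicate 4 the log2 difference was -0.57 (limma adjusted p = 0.676), and without I-KO replicate 3 it was -0.24. The islet markers Iapp and Ucn3 were below 1 CPM in every library, at 0.27 to 0.54 and 0.21 to 0.94 CPM.

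Nts encodes neurotensin, released after fat intake and made by enteroendocrine cells and by neurons. It was at 4.99, 4.12 and 4.20 CPM in Ppara lox/lox and at 4.50, 4.48, 7.04 and 5.99 CPM in Ppara I-KO (chr10:102481756-102490486). I-KO replicates 3 and 4 were above all controls, and the other I-KO libraries lay within them. Its log2 difference, the highest of the 9, was 0.24 (SE 0.15, limma adjusted p = 0.954), with a 95% interval from 0.940-fold to 1.49-fold, and without I-KO replicate 3 it was 0.13. The ratio of Nts to Gcg, chosen after the values were seen and not tested, was 0.335 to 0.498 in Ppara lox/lox and 0.469 to 1.19 in Ppara I-KO.

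Pyy encodes peptide YY, the satiety peptide of the ileum and colon. It was at 0.44, 0.34 and 0.43 CPM in Ppara lox/lox and at 0.34, 0.39, 0.48 and 0.17 CPM in Ppara I-KO (chr11:102106676-102107832). These values are 4 to 11 reads a library, with a spread of 27.7% over the 7 libraries, below the 35.9% that counting alone gives at this depth. The exact permutation test gave p = 0.60. No difference in Pyy was detectable at this depth.

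Tac1 and Tph1 are typical of enterochromaffin cells. Tac1 encodes substance P and neurokinin A, and Tph1 the rate-limiting enzyme of serotonin synthesis outside the nervous system. Tac1 was at 3.95, 4.16 and 3.85 CPM in Ppara lox/lox and at 3.69, 3.46, 2.49 and 4.63 CPM in Ppara I-KO (chr6:7554879-7565834). The controls were close together and the I-KO libraries lay on either side of them. For Tac1 the log2 difference was -0.15 (SE 0.15, limma adjusted p = 0.954), and it was -0.024 when I-KO replicate 3 was left out and -0.25 when I-KO replicate 4 was. Tph1 was at 10.6, 13.04 and 14.1 CPM in Ppara lox/lox and at 10.6, 11.6, 10.5 and 16.3 CPM in Ppara I-KO (chr7:46644641-46672537). I-KO replicate 4 was the highest and the other I-KO libraries lay within or just under the controls. The log2 difference of Tph1 was -0.05 (SE 0.16, limma adjusted p = 0.987). Tac1 is also expressed in enteric neurons and Tph1 in mast cells. The mast cell list summed to between 20.5 and 28.4 CPM, most of it Kit, which other gut cells express too, and its part in Tph1 was not tested.

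**Figure D3:**
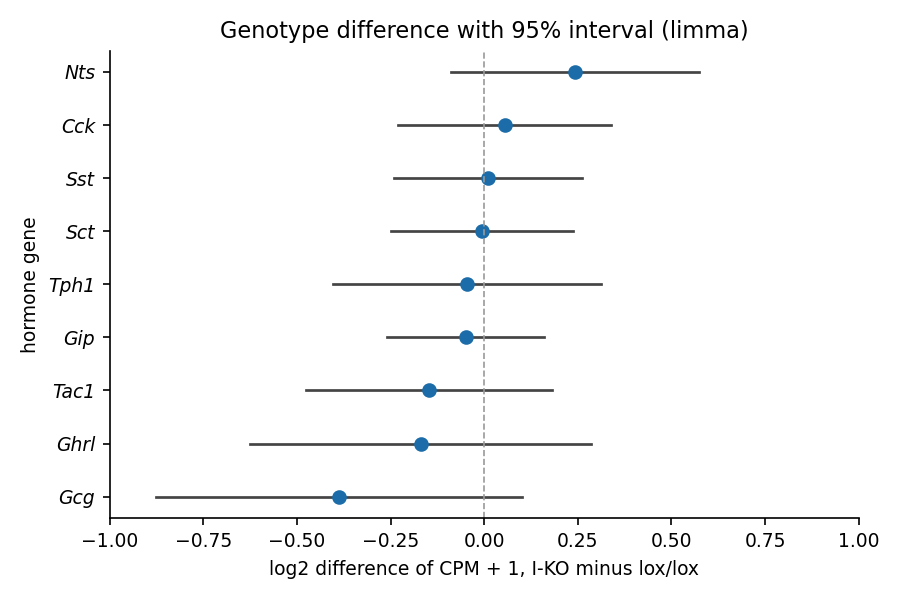
Difference in log2(CPM + 1) between Ppara I-KO and Ppara lox/lox for the 9 tested hormone genes, with points for the limma estimate and lines for its 95% interval. All 9 intervals include 0, from Gcg at -0.39 to Nts at 0.24.

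The spread between libraries was not the same for all hormone genes. The coefficient of variation over the 7 libraries was 6.90% for Gip, 9.32% for Sct, 10.1% for Sst and 12.0% for Cck. It was 17.8% for Tac1 and for Tph1, 21.2% for Ghrl, 21.5% for Nts and 27.1% for Gcg. Counting error alone would give 2.19% for Gip, 6.96% for Gcg and 11.1% for Tac1. In 8 of 9 tested genes, all but Sst, the coefficient of variation was larger in Ppara I-KO than in Ppara lox/lox, compared with 65.9% of all genes tested. Over the whole table, pairs of I-KO libraries also differed more than pairs of controls (chi-square over its degrees of freedom 39.1 to 76.0 against 13.5 to 29.6). The coefficient of variation in Ppara I-KO against Ppara lox/lox was 24.6% against 3.97% for Tac1 and 35.2% against 10.4% for Gcg. The 3.97% of Tac1 in the controls lies below the 11.1% that counting error alone gives over the 7 libraries. The difference in spread was not tested.

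The I-KO libraries with the numbers 3 and 4 held most of the extremes. I-KO replicate 3 was the lowest of 7 for Cck, Ghrl, Gcg, Tac1 and Tph1 and the highest for Pyy and Nts. I-KO replicate 4 was the highest for Ghrl, Gcg, Tac1 and Tph1 and the lowest for Pyy. Chga, measured by 823 to 1841 reads a library, followed the same course: it was at 60.7, 63.2 and 62.2 CPM in Ppara lox/lox and at 54.3, 49.2, 43.6 and 76.1 CPM in Ppara I-KO. Again I-KO replicate 3 was lowest and I-KO replicate 4 highest. Chgb went from 81.3 CPM in I-KO replicate 3 to 163 CPM in I-KO replicate 4. Neither granin passed the test between genotypes (limma log2 difference -0.18, SE 0.17, adjusted p = 0.954 for Chga, and -0.10, SE 0.21, adjusted p = 0.977 for Chgb).

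**Figure D4:**
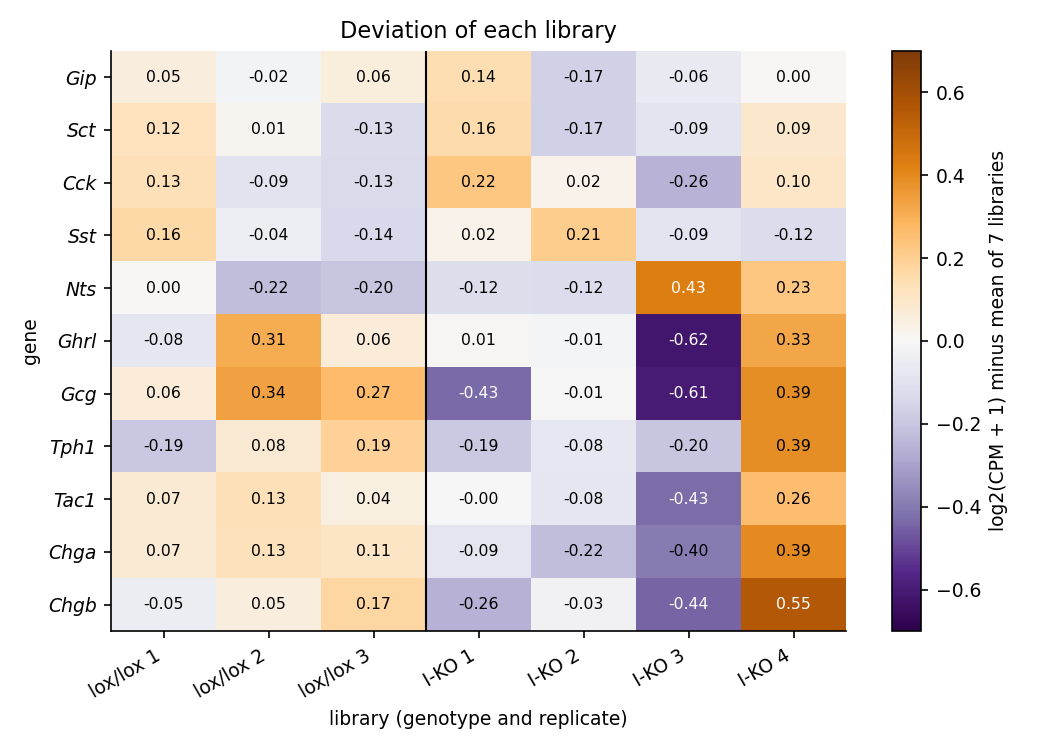
Deviation of log2(CPM + 1) from the mean of the 7 libraries, for 9 hormone genes and the granins Chga and Chgb (rows) in each library (columns), with the controls left of the line. In I-KO replicate 3 Ghrl, Gcg, Tac1, Chga and Chgb were 0.40 to 0.62 below their means and Nts 0.43 above, whereas Gip was within 0.17 of its mean in all libraries.

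The hormone genes were compared with Chga and with each other over the 7 libraries. Of 45 pairs among the 9 tested hormone genes and Chga, 8 had an exact permutation p under 0.05 before adjustment, and 1 passed after Benjamini-Hochberg adjustment over 45. That pair was Tac1 and Chga, with Pearson's r = 0.94 over 7 libraries (exact permutation p = 0.000397, adjusted p = 0.0179) and Spearman's rho = 0.96 (exact permutation p = 0.00278, adjusted p = 0.0625). Without the 2 libraries farthest from the median of Tac1, I-KO replicates 3 and 4, r was 0.94. As deviations from the group means it was 0.93 (permutation p = 0.0258, adjusted p = 0.211). This last p shuffles the deviations across both genotypes and is only approximate, since each deviation is tied to its group mean. Tac1 was between 0.0571 and 0.0703 of Chga in all libraries. This ratio varied by 7.02%, less than the 11.1% that counting error alone gives for Tac1. Its closeness thus cannot be taken at face value. No pair passed by Spearman's rho, by deviations from group means, or when any library other than I-KO replicate 1 was left out, and 4 pairs passed without I-KO replicate 1.

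The other 7 pairs under 0.05 before adjustment linked Ghrl, Gcg, Tph1, Tac1 and Chga to each other, and none of them passed adjustment. Pearson's r was 0.85 for Gcg with Chga (rho 0.96, exact permutation p = 0.0147 and 0.00278, adjusted p = 0.132 and 0.0625) and 0.95 for Ghrl with Tac1 (rho 0.79, exact permutation p = 0.00516 and 0.048, adjusted p = 0.0871 and 0.24). The 2 libraries farthest from the median of the first gene of a pair were then left out, so they differed between pairs. For Gcg with Chga r was 0.86 without I-KO replicates 1 and 3, with I-KO replicate 4 still included. Without I-KO replicates 3 and 4, r was 0.61 for Ghrl with Tac1, and Ghrl with Chga went from 0.85 to 0.48. Tph1 with Chga went from 0.80 to 0.49 without I-KO replicate 4 and lox/lox replicate 3. The last 2 pairs thus rested in part on the libraries left out. None of the 8 pairs held Gip, Cck, Sct, Sst or Nts. Taken as a ratio to Chga, 4 genes varied less over the libraries: Tac1 by 7.02% in place of 17.8%, Tph1 by 11.02% in place of 17.8%, Ghrl by 12.4% in place of 21.2% and Gcg by 16.5% in place of 27.1%. The other 6 varied more, Gip by 16.7% in place of 6.90% and Sst by 22.7% in place of 10.1%. Chga itself varied by 18.2%, so for a gene as steady as Gip the ratio was bound to vary more. The split thus depends in part on the spread of each gene itself.

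**Figure D5:**
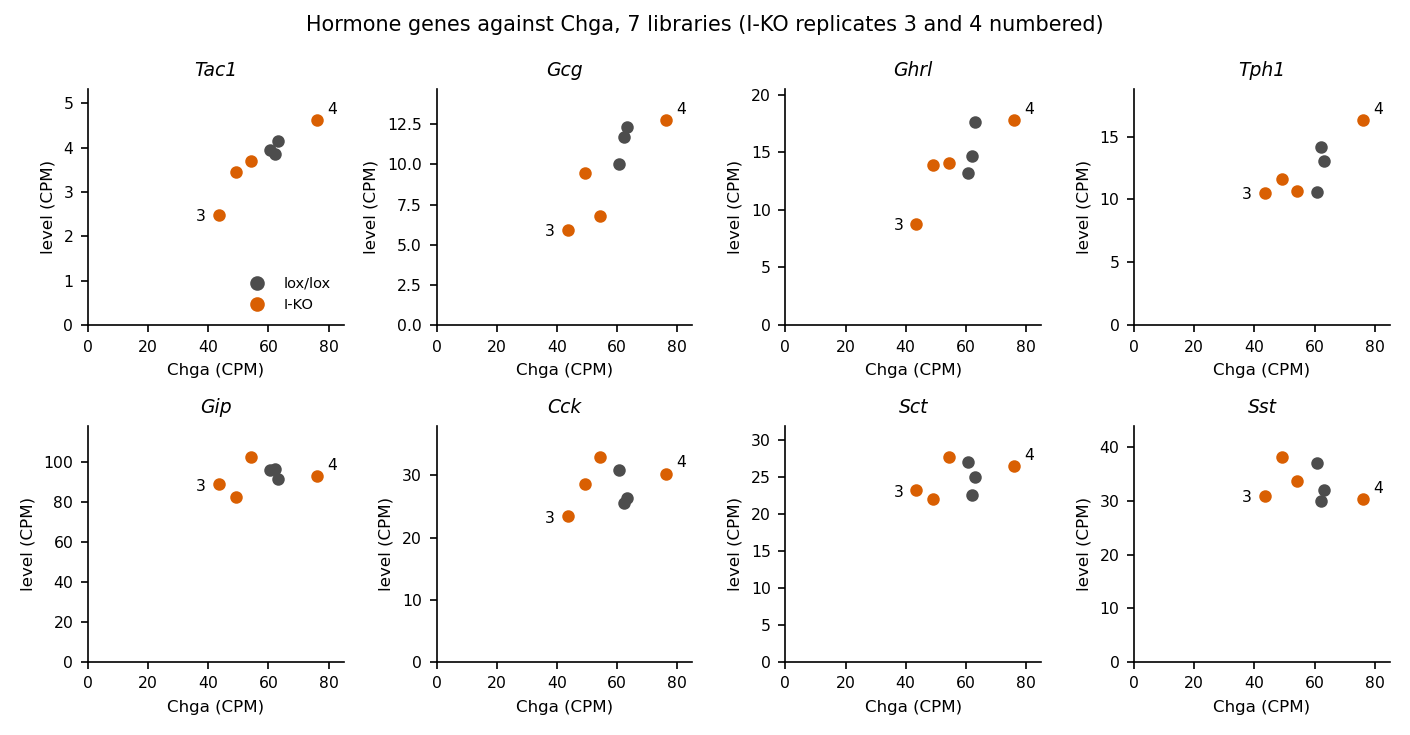
CPM of 8 hormone genes against CPM of Chga in the 7 libraries, with controls in grey, I-KO in orange and I-KO replicates 3 and 4 numbered. Tac1 followed Chga most closely, with r = 0.94, while Gip lay between 82.7 and 103 CPM whatever the level of Chga.

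The genes most like hormone genes over the 7 libraries were sought among the 13398 other tested genes, as a description, since 7 points and many genes give high values without any link. Tac1 was most like Slc18a2, the vesicular monoamine transporter VMAT2 (r = 0.99), which was at 0.53 to 1.20 CPM and rested on 10 to 29 reads a library. For Gcg the most alike were Dkc1 and Rif1 (r = 0.99 for each). Gip was most like Rem1 (r = 0.98), Cck the row listed as Clca1 (r = 0.97) and Sst Dnajc22 (r = 0.96). Ghrl was most like Amacr (r = 0.97), Nts Glrx (r = 0.99) and Tph1 Ptpn11 (r = 0.98).

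The machinery around the hormones was described by fixed lists. By limma, 0 of 102 list genes tested passed the adjusted threshold, compared with 0.0299% of all genes, and 3 had an unadjusted p under 0.05, compared with 4.74%. Of 18 granule and prohormone processing genes 17 were tested, and 5 had higher and 12 lower fitted values in Ppara I-KO (median log2 difference -0.04). Pcsk1, the convertase that cuts most gut prohormones, was among the steadiest, at 12.5, 12.6 and 12.7 CPM in Ppara lox/lox and 11.4 to 13.4 CPM in Ppara I-KO. Cpe, which trims the cut peptides, was at 63.2 to 100 CPM. In serotonin handling 1 of 6 tested genes had a higher and 5 a lower fitted value (median -0.12). Slc18a1, the transporter VMAT1 that loads serotonin into granules, was the higher one, at 9.45 ± 1.26 (SD, n = 3) against 11.95 ± 2.36 CPM (SD, n = 4), which did not pass (log2 difference 0.30, SE 0.15, limma adjusted p = 0.954). Maoa, which degrades serotonin, was at 297 to 456 CPM and Ddc, the next enzyme after Tph1, at 95.6 to 140 CPM.

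Of the transcription factors of the lineage 14 were tested, 6 with higher and 8 with lower fitted values (median -0.02). Atoh1, which directs progenitors to secretory fates, was at 10.1 to 11.9 CPM, and Neurog3, which starts the endocrine lineage, at 0.95 to 1.78 CPM. Rfx6, needed for K cells and other endocrine cells, had the smallest p of the list. It was at 1.43, 1.72 and 1.38 CPM in Ppara lox/lox and 0.86, 0.90, 0.90 and 1.16 CPM in Ppara I-KO, without overlap of the groups, on 17 to 40 reads a library. Its log2 difference of -0.36 (SE 0.09, limma p = 0.00327) did not pass adjustment (adjusted p = 0.761), and the exact permutation p of 0.0286 is the smallest that 3 against 4 libraries can give. Only 4 libraries were above 1 CPM, all 3 controls among them, so Rfx6 entered the test largely through the group where it was higher.

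Among nutrient sensors 9 were tested, 6 higher and 3 lower (median 0.01). The sodium-glucose transporter Slc5a1, which absorptive enterocytes are known to express too, was at 2798 to 4627 CPM. The fatty acid receptor Ffar4 was at 4.00, 3.73 and 3.61 CPM in Ppara lox/lox and at 3.83, 3.30, 2.81 and 1.49 CPM in Ppara I-KO, with the lowest log2 difference of this list (-0.35, SE 0.20, limma adjusted p = 0.954). The groups overlapped. Of hormone receptors and peptidases 7 were tested, 4 higher and 3 lower (median 0.13). Dpp4, which inactivates GIP and GLP-1, was at 669 to 898 CPM, the peptidase Mme at 1018 to 1596 CPM and the GLP-2 receptor Glp2r at 9.18 to 16.8 CPM. The receptors Gipr, Sstr5 and Npy1r were below 1 CPM in all libraries. Of other gut peptides 5 were tested, 1 higher and 4 lower (median -0.11), with Guca2b, uroguanylin, at 1364 to 2057 CPM.

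Lists of other cell types gave no called gene either. Of enteric neuron genes 13 were tested, 5 higher and 8 lower (median -0.03). Vip, a relaxing peptide of these neurons, was at 13.8 to 18.4 CPM. Of glial genes 3 were tested, 2 higher and 1 lower (median 0.10). S100b, at 0.83 to 0.94 CPM in Ppara lox/lox and 1.01 to 1.77 CPM in Ppara I-KO, entered the test only through the I-KO libraries (limma log2 difference 0.33, adjusted p = 0.954, exact permutation p = 0.0571). All 8 smooth muscle genes had higher fitted values (median 0.13), as had all 5 tested acinar genes (median 0.20), and I-KO replicate 1 had the highest sum of both lists. The libraries highest in acinar genes were I-KO replicate 1 and lox/lox replicate 2. Without them the fitted differences were -0.043 for Cck, -0.015 for Sst and 0.037 for Tph1, each opposite in sign to that with all libraries. Of mast cell genes 3 were tested, 2 higher and 1 lower (median 0.19), of stomach genes both tested were higher (median 0.17), of islet genes 0 were tested, and of epithelial genes 10 were tested, 6 higher and 4 lower (median 0.06).

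The 10 hormone genes together held little of the duodenal RNA. They summed to 228 ± 5.65 CPM (SD, n = 3) in Ppara lox/lox and 223 ± 17.7 CPM (SD, n = 4) in Ppara I-KO (two-sided exact permutation test, p = 0.714). Between 0.0184% and 0.0244% of the column total of a library fell on them. The sum was between 202 and 238 CPM over the 7 libraries, and Gip made up 38.5% to 44.1% of it.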

How the data were processed

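The authors deposited 1 table of signal values, the counts of each gene scaled to a common, adjusted library size (CPM), to 2 decimals, for 14795 genes and 7 libraries. Per the labels and the submitters' processing notes, poly(A) RNA was read with single 100 base reads and processed with FastQC 0.11.2, TopHat2 2.0.13, Picard 1.80, HTSeq 0.6.1, edgeR and mm10. 1 row without a gene name was dropped. The filter was a CPM above 1 in at least 3 libraries. Log2(CPM + 1) was fitted with limma 3.58.1 (R 4.3.3) on genotype over 13399 genes, two-sided, with Benjamini-Hochberg adjustment and a threshold of 0.05. The fit was tested on simulated data. Single values were compared by exact permutation tests. Python 3.11.15 made tables and figures.

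Reads per library were inferred from the step of the low values. Levels per kb used GENCODE M21 (GRCm38, the same assembly as mm10), in which 13922 symbols were found. Replicates differed by more than sampling noise (chi-square per degree of freedom at least 13.5), and the labels give each as a biological replicate.

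The members and the 14 lists (181 entries, 145 in the table) were chosen with earlier results of these data known. All 10 hormone genes are named, and, from each list, genes among the 3 highest or at an unadjusted p under 0.05. Further list genes were named after their values were seen. The genes most alike are those with the highest Pearson's r. Some genes that these rules name are not reported here. Alternatives concerned scaling, filter, pseudocount, block, libraries, trend, weights and length.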

Additional observations from a re-analysis of the deposited data

Results flagged for a closer look

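Of 64 quantities, each hormone gene, named list gene and list sum, 6 had 1 library among the 4 I-KO libraries whose gap to its neighbour, as a share of the range of the 4, was above Dixon's 95% critical value. Chance flags about 1 in 20. None of the 10 hormone genes was among them. In I-KO replicate 4, Rfx6 was at 1.16 CPM where the rest of its group was at 0.86 to 0.90 CPM (share 0.867) and Maob, which degrades amines, at 82.0 CPM against 47.4 to 49.5 CPM (share 0.939). For Rfx6 these values rested on only 28 reads in I-KO replicate 4 and 17 to 23 in the rest of its group, where counting error is large. The controls were at 1.38 to 1.72 CPM for Rfx6 and 43.6 to 74.0 CPM for Maob. In I-KO replicate 1, Cela1 was at 50.8 CPM against 7.36 to 8.10 CPM (share 0.983) and the acinar sum at 530 CPM against 95.1 to 118 CPM (share 0.946). In the same library Myh11, smooth muscle myosin, was at 557 CPM against 417 to 439 CPM (share 0.846) and the sum of enteric neuron genes at 85.9 CPM against 64.3 to 66.8 CPM (share 0.883). This library was also the highest for Gip, Cck and Sct, and the part of the other tissue in them was not tested.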

How the results depend on the processing

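The count of hormone genes past the threshold was 0 under all 17 alternatives run, and that of list genes 0 under all 15. The smallest adjusted p of a hormone gene was 0.608, for Gcg with the replicate number as a block (replicate block), where its log2 difference was -0.57 (unadjusted p = 0.00396) and 0 hormone genes passed. With this block, and without I-KO replicate 4, 1 of 9 hormone genes, Gcg, had an unadjusted p under 0.05. In this fit I-KO replicate 4 has no partner, so the estimate equals that without this library. The numbers did not pair the libraries (correlations of deviations -0.0141, 0.184 and -0.00923), and the other replicate of highest correlation had the same number for 1 of 3 controls. Count models on recovered reads were not run, since in 5 libraries under 95% of the low values came out whole to within 0.1 reads. In every library 100% of the low values lay within the rounding of 0.005 CPM of a whole number of reads. Missing the mark of 0.1 reads thus does not show that reads could not be recovered.

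Of 153 fitted differences under alternatives 20 changed sign, all with an adjusted p above 0.9. Relative to Chga and Chgb, Gip was at 0.093, Sct at 0.14 and Tph1 at 0.096. Without the libraries highest in acinar genes Cck was at -0.043, Sst at -0.015 and Tph1 at 0.037. Sst was at -0.027 with equal column totals and at -0.037 relative to the epithelium list. Over the fits that lack 1 library, the difference was between -0.012 and 0.15 for Cck, -0.071 and 0.055 for Sct, -0.058 and 0.094 for Sst, -0.30 and 0.011 for Ghrl and -0.18 and 0.035 for Tph1. For Gip this range was -0.11 to -0.0012. Gcg, Nts and Tac1 changed sign in none, but Tac1 was at -0.004 relative to Chga and Chgb and at -0.024 without I-KO replicate 3.

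Of the 10 genes 6 kept their place per kb of the longest coding transcript and 5 by CPM without length. The pairs that varied together were 0 by deviations from group means, and between 0 and 4 with each library left out, 4 without I-KO replicate 1 and 0 without each other library. With a library left out, a single pair could not pass, whatever its r.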
